A study of Mus musculus with 2 samples.

Results

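Genes of ketone body use and of branched-chain amino acid breakdown were measured in heart RNA of transgenic (TG) mice of the αMHC/miR-143/145 model. The 9 genes were taken by symbol, old or current, from the platform's gene table, out of 16390 named genes on the array. They are Bdh1, Oxct1 and Acat1 for ketone use, and Bcat2, Bckdha, Bckdhb, Dbt, Bckdk and Mccc1 for branched-chain amino acids. Each had 1 probe, and all 9 were above background in every channel. Heart RNA of 3-month old male mice was hybridised to 2 oligonucleotide arrays from Toray (3D-Gene, mouse), read in 2 colours. One array set line L9 and the other line L19, in Cy3, against RNA of non-transgenic (NTG) mice in Cy5. Both lines carry the human primary transcript of miR-143/145 behind the αMHC promoter, which drives expression in cardiomyocytes. The transgene was injected into B6D2F1 eggs and the mice were backcrossed to C57BL/6 J. Neither labels nor methods say how many mice gave each RNA. The labels name the NTG RNA alike on both arrays without saying whether it was 1 extract. It stands here for 1 control sample, and the lines for 2 samples of TG. P-values therefore rest only on the spread between these lines, drawn by the test toward the spread over all genes.

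Ketone bodies are fuels made by the liver that the heart takes up and burns in its mitochondria. BDH1 oxidizes β-hydroxybutyrate to acetoacetate, OXCT1 activates acetoacetate with coenzyme A, and ACAT1 splits the product into acetyl-CoA. Leucine, isoleucine and valine are first stripped of their amino group by BCAT2, and the keto acids left are then committed to oxidation by the branched-chain keto acid dehydrogenase complex. BCKDHA and BCKDHB form its decarboxylase, DBT its core, and BCKDK is the kinase that switches it off.

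Signals below are spot intensities after subtraction of the blank-spot mean in each channel, with Cy3 divided by the array's median ratio. All ratios are TG over NTG. The ratios were set to a median of 1 on each array, and their mean log2 value over the lines was tested against 0 with limma. P-values were adjusted after Benjamini-Hochberg over the 17482 genes or unnamed probes measured on both arrays. The ± values are SD of n = 2 lines. The spread between NTG mice does not enter the test, and with no dye swap a dye effect and a difference between TG and NTG cannot be told apart. Intensities give no count, and the number of arrays, with 1 probe for each of the 9 genes, limits the precision. The probe signals of the 9 genes lay between 3.32 and 348 times the detection limit of their channel, Bcat2 being nearest to it in Cy3.

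In both lines, Bdh1 and Oxct1 read above NTG and Acat1 below it. Bdh1 was at 191% of NTG in L9 and 134% in L19, Oxct1 at 124% and 130%, and Acat1 at 80.1% and 83.9%. Among the branched-chain genes, Dbt was at 138% of NTG in L9 and 180% in L19, while Bcat2 and Bckdk read below NTG in both lines. No difference passed the adjusted threshold in limma, and no gene of the array did.

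Bdh1 had an NTG signal of 539 and a TG signal of 1033 on the L9 array. On the L19 array the NTG signal was 599 and the TG signal 805. Both TG readings thus lay above both NTG readings, and the L9 reading was the higher. How many of all genes separate in this way was not counted, here or for the genes below, so the separation is a description only. The mean was 160% of NTG ± 40.3, or a log2 ratio of 0.68 ± 0.36 with a 95% interval of 0.18 to 1.18 (limma, adjusted p = 0.121). Bdh1 passed the 1.5-fold cutoff of the paper's methods in L9 alone, at 1.91-fold, and stood at 1.34-fold in L19. It was the only one of the 9 genes past this cutoff in L9, where 10.6% of all genes tested were above 1.5-fold and 7.47% below 1/1.5.

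Oxct1 encodes the transferase without which a tissue cannot burn ketone bodies. On the L9 array NTG gave a signal of 4642 and TG one of 5758. On the L19 array NTG gave 7105 and TG 9270. The NTG reading of L19 exceeded the TG reading of L9, so the channels overlapped between arrays although TG exceeded NTG on each. The NTG readings, of RNA with 1 label, differed between arrays by 0.50 on the log2 scale after centring, against an SD of 0.27 over all genes. The ratios were nevertheless close to each other, with log2 values of 0.31 in L9 and 0.38 in L19, a mean of 0.35 ± 0.05 and a 95% interval of 0.03 to 0.67 (limma, adjusted p = 0.151).

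Acat1 encodes the mitochondrial thiolase, which also serves the breakdown of isoleucine. On the L9 array the signal was 5849 in NTG and 4687 in TG. On the L19 array it was 6446 in NTG and 5405 in TG. Both TG readings were below both NTG readings. The log2 ratio was -0.29 ± 0.05, with a 95% interval of -0.61 to 0.03 (limma, adjusted p = 0.188).

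Within each array, Oxct1 thus stood apart from Acat1 by nearly the same amount. The log2 ratio of Oxct1 exceeded that of Acat1 by 0.63 in L9 and 0.64 in L19. Of the settings tried, only normexp, loess, normexp followed by loess, and centring on the printing block can alter such a difference, and under these it lay between 0.62 and 0.66 in both lines. Bdh1 exceeded Acat1 by 1.26 in L9 and by 0.68 in L19, with ranges over the settings of 1.12 to 1.42 and 0.57 to 0.88. Such a difference within an array does not depend on the scaling of that array, but both arrays used NTG RNA of 1 label, and the pairs were set side by side after their values were seen. They are given without a test.

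**Figure D1:**
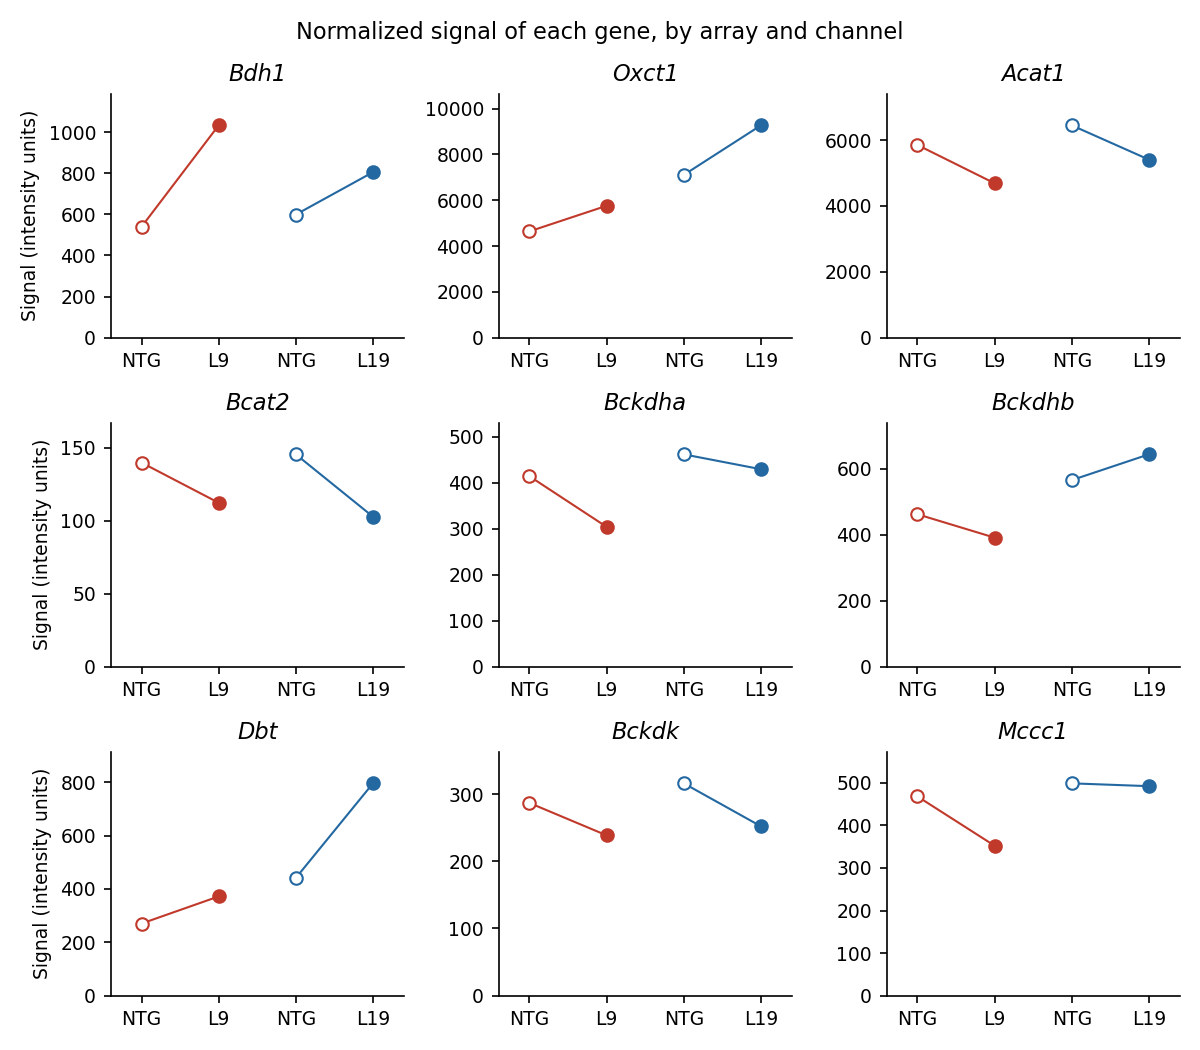
Normalized signal (vertical axis, intensity units, starting at 0) of the 9 genes in the NTG channel (open points) and the TG channel (filled points) of the L9 array (red) and the L19 array (blue). A line joins the channels of 1 array, and each point is 1 reading. Bdh1, Oxct1 and Dbt go up from NTG to TG on both arrays, and Bckdhb goes down on the L9 array and up on the L19 array.

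The start regions of the ketone pair above NTG, Bdh1 and Oxct1, are shown for the letters they hold. RefSeq sequences of GRCm38.p6, from 250 bases before to 50 bases after a start, were matched by symbol for 7 of the 9 genes, with 10 windows in all. Dbt and Acat1 had no window. Capitals mark any of 7 motifs, on either strand. The motifs were TCAAGGTCA (estrogen-related receptor element), AAGGTCA (nuclear receptor site, also part of the former), GGGCGG (known as the GC box), CCAAT (bound by NF-Y), TATAAA (the core promoter box), CACGTG (known as the E-box) and CCACCC (a site of Krüppel-like factors).
Bdh1, downstream start, chr16:31428503-31428802, + strand: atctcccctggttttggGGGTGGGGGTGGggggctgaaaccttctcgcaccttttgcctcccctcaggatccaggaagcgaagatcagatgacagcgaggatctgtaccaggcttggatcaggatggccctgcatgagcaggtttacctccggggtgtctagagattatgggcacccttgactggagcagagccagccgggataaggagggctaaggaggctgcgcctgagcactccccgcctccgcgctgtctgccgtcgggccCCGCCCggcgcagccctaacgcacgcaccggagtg
Oxct1, chr15:4026178-4026477, + strand: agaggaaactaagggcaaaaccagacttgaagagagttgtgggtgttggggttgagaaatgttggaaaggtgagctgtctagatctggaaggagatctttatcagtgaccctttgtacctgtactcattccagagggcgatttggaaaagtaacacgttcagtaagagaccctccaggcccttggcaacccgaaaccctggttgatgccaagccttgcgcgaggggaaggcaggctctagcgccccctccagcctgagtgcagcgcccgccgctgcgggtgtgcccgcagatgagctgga
The Bdh1 window shown holds CCACCC at 2 places and GGGCGG at 1, on the reverse strand. The window of its upstream start and that of Oxct1 hold none of the motifs, so the ketone pair shares none of them here. CCACCC is in 31.5% of the 32851 RefSeq windows of the same length and GGGCGG in 35.7%. Neither the estrogen-related receptor element (in 0.423% of all windows) nor the nuclear receptor site (4.72%) nor the E-box (7.15%) is in any of the 10 windows, which says only that these letters are not there.

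Of the branched-chain genes, Dbt read highest over NTG in both lines, and Bcat2 lowest in the mean of the lines, with Bckdha and Mccc1 below it in L9. Dbt encodes the transacylase core of the dehydrogenase complex, to which the other subunits and the kinase bind. The L9 array read 270 in NTG and 372 in TG, and the L19 array 441 in NTG and 795 in TG. The NTG reading of the L19 array exceeded the TG reading of L9, and the NTG readings differed by 0.59 on the log2 scale after centring, more than 2 SD of all genes. The probes of Dbt and Oxct1, the 2 genes whose NTG readings differed most, both lie in printing block 24 of the array. The log2 ratio of Dbt was 0.46 in L9 and 0.85 in L19, with a mean of 0.66 ± 0.28 and a 95% interval of 0.22 to 1.09 (limma, adjusted p = 0.109). Dbt was the only one of the 9 past 1.5-fold in L19, at 1.80-fold, where 9.78% of all genes tested were above 1.5-fold and 7.6% below 1/1.5. None of the 9 was above 2-fold, where 3.36% of all genes were in L9 and 2.89% in L19.

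The decarboxylase subunits did not share the ratio of the core. Bckdha read 414 in NTG and 304 in TG with line L9, and 461 in NTG and 429 in TG with line L19. Bckdhb read 462 in NTG and 391 in TG with line L9, and 565 in NTG and 643 in TG with line L19. For Bckdhb the arrays thus read on opposite sides of NTG, at 84.7% in L9 and 114% in L19. The log2 ratio was -0.28 ± 0.24 for Bckdha (limma, adjusted p = 0.273) and -0.03 ± 0.30 for Bckdhb (adjusted p = 0.921). The 95% interval of Bckdhb ran from -0.48 to 0.43. Dld, the dehydrogenase subunit shared with the pyruvate and 2-oxoglutarate complexes, was at 0.22 in L9 and 0.20 in L19.

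Within the complex, the log2 ratio of Dbt exceeded that of Bckdha by 0.91 in L9 and 0.96 in L19, and that of Bckdhb by 0.70 in L9 and 0.66 in L19. The order Dbt, Bckdhb, Bckdha held on both arrays. Over blank correction and the same 4 settings the excess over Bckdha ranged from 0.80 to 0.91 in L9 and from 0.89 to 0.96 in L19. Dbt exceeded Dld by 0.24 in L9 and by 0.65 in L19, with ranges of 0.11 to 0.24 and 0.55 to 0.65. The same limits hold as for the ketone pairs, which is why no test is given.

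Bckdk and Bcat2 read below NTG. Bckdk, the inhibitory kinase, read 287 in NTG and 239 in TG for L9, then 316 in NTG and 252 in TG for L19, with both TG readings below both NTG readings. Its log2 ratio was -0.30 ± 0.04, with a 95% interval of -0.61 to 0.02 (limma, adjusted p = 0.180). Bcat2, the mitochondrial aminotransferase, read 140 in NTG and 112 in TG for L9, then 145 in NTG and 103 in TG for L19, again without overlap. It was at 75.3% of NTG ± 6.84, and its log2 ratio was -0.41 ± 0.13, with a 95% interval of -0.75 to -0.06 (limma, adjusted p = 0.139). Bcat1, the cytosolic aminotransferase, was at -0.02 in L9 and 0.31 in L19 from dim spots. Ppm1k, the phosphatase that switches the complex on, was at -0.32 in L9 and 0.36 in L19.

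Mccc1 encodes the biotin-bearing subunit of methylcrotonyl-CoA carboxylase, an enzyme of leucine breakdown. With L9 the signal was 468 in NTG and 352 in TG, and with L19 it was 499 in NTG and 492 in TG. It was thus lower on the L9 array and near NTG on the L19 array, with a log2 ratio of -0.21 ± 0.28 (limma, adjusted p = 0.387). Mccc2, the partner subunit, had a log2 ratio of -0.06 with L9 and 0.01 with L19. The log2 ratio of Mccc1 less that of Mccc2 was -0.35 in L9 and -0.03 in L19. Over the settings it ranged from -0.36 to -0.20 in L9 and changed sign in L19, from -0.04 to 0.12.

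**Figure D2:**
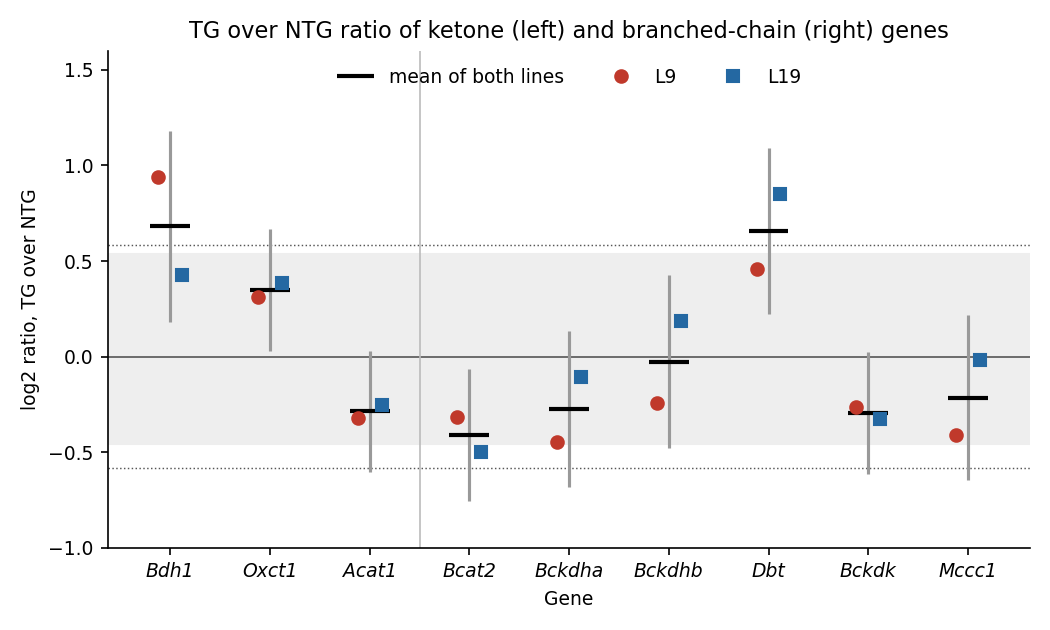
Log2 ratio of TG over NTG (vertical axis) of the 3 ketone genes and the 6 branched-chain genes in L9 (red circles) and L19 (blue squares), with the mean (black bar) and its 95% interval from limma (grey line). Dotted lines mark 1.5-fold in either direction and the grey band holds the middle 80% of all 17482 genes tested. Only Bdh1 and Dbt have means above the band, and no mean lies below it.

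The start regions of Bcat2 and Bckdk, which read below NTG in both lines, as Bckdha and Mccc1 did, are shown with the same motifs in capitals.
Bcat2, upstream start, chr7:45569903-45570202, + strand: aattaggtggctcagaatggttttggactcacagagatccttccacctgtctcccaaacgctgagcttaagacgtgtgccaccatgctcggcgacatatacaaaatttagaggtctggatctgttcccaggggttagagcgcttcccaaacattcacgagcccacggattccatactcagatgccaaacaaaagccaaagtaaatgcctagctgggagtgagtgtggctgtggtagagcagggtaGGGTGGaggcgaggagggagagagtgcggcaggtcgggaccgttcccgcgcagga
Bckdk, chr7:127903823-127904122, + strand: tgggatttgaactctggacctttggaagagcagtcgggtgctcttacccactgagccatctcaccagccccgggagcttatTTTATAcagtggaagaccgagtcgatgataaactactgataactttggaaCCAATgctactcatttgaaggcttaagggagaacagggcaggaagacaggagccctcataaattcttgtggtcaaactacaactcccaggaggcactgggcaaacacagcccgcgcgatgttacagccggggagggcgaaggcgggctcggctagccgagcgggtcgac
Bcat2 holds CCACCC at 1 place, on the reverse strand, and Bckdk holds CCAAT and TATAAA at 1 place each, the latter on the reverse strand. CCAAT is in 37.4% of all windows and TATAAA in 13.6%. These 2 genes share no motif either, and the GC boxes of the branched-chain genes lie in the windows of Bckdhb (3 places) and Mccc1 (1 place). Across the 7 genes, CCACCC is in 4 (Bdh1, Bcat2, Bckdhb and Mccc1) and CCAAT in 3 (Bckdk, Bckdhb and Mccc1). CCACCC is thus found with genes above and below NTG, and it is in 31.5% of all windows.

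With limma run with a signal trend and a robust prior, 3 of the 9 genes were called higher and 2 lower, against 10.5% and 9.58% of all genes. The calls were Dbt (adjusted p = 0.0090), Bdh1 (adjusted p = 0.016) and Oxct1 (adjusted p = 0.019) higher, and Bcat2 (adjusted p = 0.028) and Acat1 (adjusted p = 0.035) lower. Bckdk missed the threshold at an adjusted p = 0.052. At an unadjusted p under 0.05 without the trend, 3 of the 9 were higher and 1, Bcat2, lower, and so were 15.7% and 14.4% of all genes. The 9 genes had a median log2 ratio of -0.21, against -0.01 over all genes tested.

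With normexp (offset 50) in place of the blank correction, all 9 ratios were higher. Acat1, Bckdha, Bckdhb, Bckdk and Mccc1 then lay above NTG, at 0.20, 0.17, 0.41, 0.13 and 0.23, and Bcat2 was at -0.01. limma then called 5 of the 9 higher and none lower, against 30.5% and 13.1% of all genes. Above 1.5-fold were then 3 of the 9 in L9, against 8.89% of all genes and 17.5% of those in the upper 50% of signal, and 4 in L19, against 7.87% and 15.4%. Under this setting the median log2 ratio of all genes went from -0.18 in the dimmest of 10 signal classes to 0.44 in the brightest, where the blank correction gave 0.20 and -0.02. All 9 genes lie in the upper 50% of signal. When limma was fitted to that upper 50% alone, 3 of the 9 were called higher and 1 lower, against 14.3% and 14.7% of the genes fitted. With loess added after normexp, Bdh1 was at 0.66, Dbt at 0.61, Oxct1 at 0.40, Bcat2 at -0.29, Bckdk at -0.25 and Acat1 at -0.23, and limma called the first 3 higher and the last 3 lower, against 9.5% and 7.64% of all genes.

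**Figure D3:**
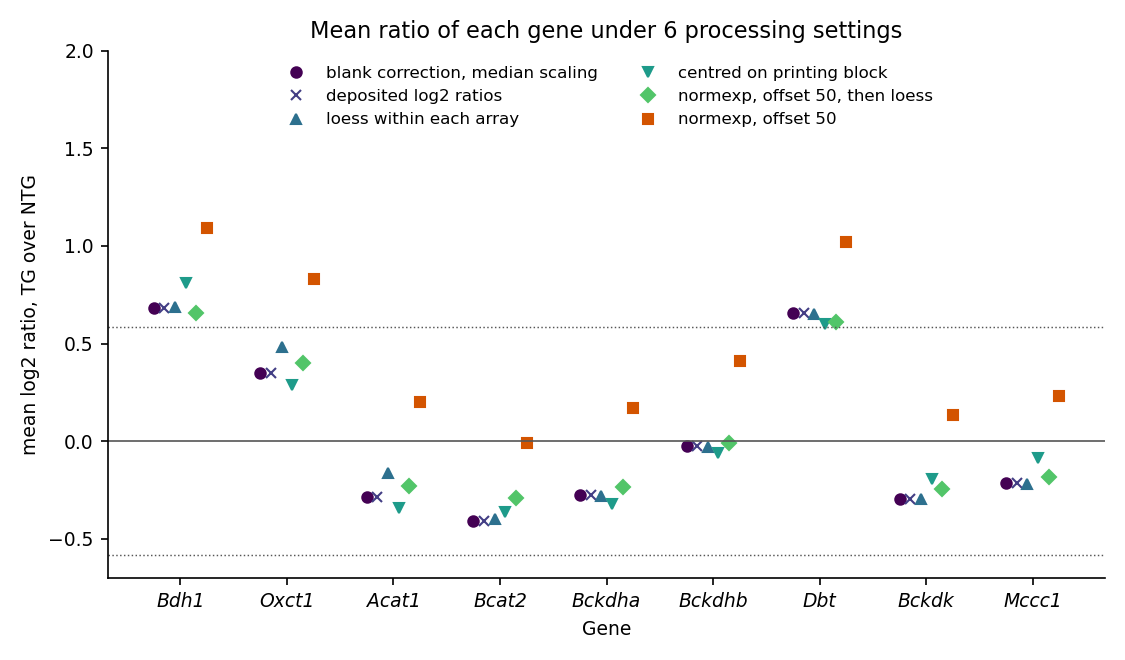
Mean log2 ratio of TG over NTG (vertical axis) of each gene under 6 processing settings, with dotted lines at 1.5-fold in either direction. Bdh1, Oxct1 and Dbt lie above 0 under each of the 6, and only normexp without loess (orange squares) moves all 9 genes upward.

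Later steps of branched-chain amino acid breakdown lay on both sides of NTG. Of 17 genes listed, 16 were measured, 5 of them above NTG in L9 and 7 in L19, where 48.7% and 48.5% of all genes were. Their median log2 ratio was -0.01, with -0.68 for Ivd at the low end and 0.35 for Mmut at the high end. Ivd, the dehydrogenase of leucine breakdown, was at -0.99 in L9 and -0.38 in L19 (limma, adjusted p = 0.135). Mmut, the mutase that makes succinyl-CoA, read 0.16 with L9 and 0.55 with L19. None of the 16 was past 1.5-fold in the same direction in both lines, a criterion met by 5.21% of all genes above and 3.03% below NTG, with NTG RNA of 1 label behind both lines. None was called by limma, while with the signal trend and robust prior Ivd (adjusted p = 0.028), Auh (adjusted p = 0.032) and Mcee (adjusted p = 0.019) were called lower and none higher, against 9.58% and 10.5% of all genes. Auh, a hydratase of leucine breakdown, was at -0.35 ± 0.14 and Mcee, the epimerase before the mutase, at -0.40 ± 0.13.

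Of 10 genes of branched-chain control and transport, Dld counted among them, 8 were measured and none was past 1.5-fold in both lines. Slc43a1, an amino acid transporter, was highest at 0.51 ± 0.12 from dim spots (-0.03 after normexp). Slc25a44, the mitochondrial carrier of branched-chain amino acids, was lowest at -0.40 ± 0.29, also from dim spots (-0.15 after normexp). Of 13 other ketone genes, 7 were measured. Their medians were -0.18 (L9) and 0.49 (L19), and none was past 1.5-fold in both lines. Both lines together gave a median of 0.21, the value of Bdh2 from dim spots, and of 0.06 after normexp followed by loess. Above NTG were 2 of the 7 in L9 and 6 in L19, against 48.7% and 48.5% of all genes. Slc16a1, a carrier of ketone bodies and lactate across the cell membrane, was at 0.18 in L9 and 0.49 in L19. Aacs, a cytosolic enzyme that uses acetoacetate for lipid synthesis, was lowest at -0.35 ± 0.06 from dim spots (-0.13 after normexp).

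The sister complexes were read for comparison. Of 13 genes of the pyruvate and 2-oxoglutarate complexes and their regulators, all were measured and the median was -0.12. Ogdh, the decarboxylase of the 2-oxoglutarate complex, was lowest at -0.66 ± 0.18 and Pdk1, a pyruvate dehydrogenase kinase, highest at 0.43 ± 0.10. Dlat and Dlst, which encode the cores that correspond to Dbt, were at 0.10 ± 0.04 and 0.03 ± 0.09. Of 13 measured genes of the tricarboxylic acid cycle, 2 were above NTG in each line, with a median of -0.23. Cs, the citrate synthase that takes up acetyl-CoA, was lowest at -0.54 ± 0.16. Sucla2, a subunit of succinyl-CoA synthetase, was at 0.63 ± 0.04 and was the only gene of these 5 lists past 1.5-fold in both lines. The other subunits, Suclg1 and Suclg2, read below NTG in both lines, with means of -0.26 and -0.23. OXCT1 also uses succinyl-CoA, and whether these ratios bear on that of Oxct1 was not tested.

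Most branched-chain genes read higher in L19 than in L9. Bckdhb was 0.43 higher in L19 than in L9 on the log2 scale, Dbt and Mccc1 were 0.39 higher and Bckdha 0.34, while L19 less L9 was -0.06 for Bckdk, -0.19 for Bcat2 and -0.51 for Bdh1. Over all genes tested the difference had an SD of 0.42, and its middle 90% ran from -0.70 to 0.66, so none of the 9 stood outside it. That range takes in dim genes. It was not computed for the upper 50% of signal, where all 9 lie and fewer genes differed by more than 0.3 upward. With 1 sample per line there is no test of a difference between lines. Taken with the later steps, 17 of 22 branched-chain enzymes (77.3%) were higher in L19, against 49.5% of all genes and 50.5% of those in the upper 50% of signal. More than 0.3 higher were 10 of 22 (45.5%), against 17% of all genes and 10.5% of the upper 50%. More than 0.3 lower was 1 of 22, against 17.7% of all genes. Related lists leaned the same way, with 7 of 7 other ketone genes, 10 of 13 genes of the tricarboxylic acid cycle and 9 of 13 of the other dehydrogenase complexes higher in L19. More than 0.3 higher were 4 of the 7, 0 of the 13 cycle genes and 3 of the 13 of the other complexes. The lean is thus not shown to be particular to the branched-chain enzymes. The grouping of the 22 was made after the values were seen, and the count of 17 was the same under normexp, loess, normexp followed by loess, and centring on the printing block. More than 0.3 higher were 6 of the 22 under normexp (3.47% of all genes) and 9 with loess added (2.86%). Under loess alone it was 10 (17.4%), and centred on the printing block 9 (16.9%).

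Regulators of this pathway and of the pyruvate complex were read as well, and Ppara and Pdk4 were named after their values were seen. Klf15, a transcription factor known to induce Bcat2 and other enzymes of this pathway, was at -0.67 in L9 and 0.66 in L19, and Ppm1k was 0.68 higher in L19. Ppara, the nuclear receptor that drives fatty acid and ketone genes, was at -0.25 in L9 and 0.74 in L19. Pdk4, a pyruvate dehydrogenase kinase, was at -0.72 and 0.38. Other regulators differed less between lines, with L19 less L9 at -0.06 for Bckdk, 0.14 for Pdk1, 0.03 for Pdk3, -0.06 for Pdp1 and 0.36 for Pdk2. It was 1.19 for Pdp2, from dim spots. Whether any of these regulators bears on the other ratios was not tested.

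**Figure D4:**
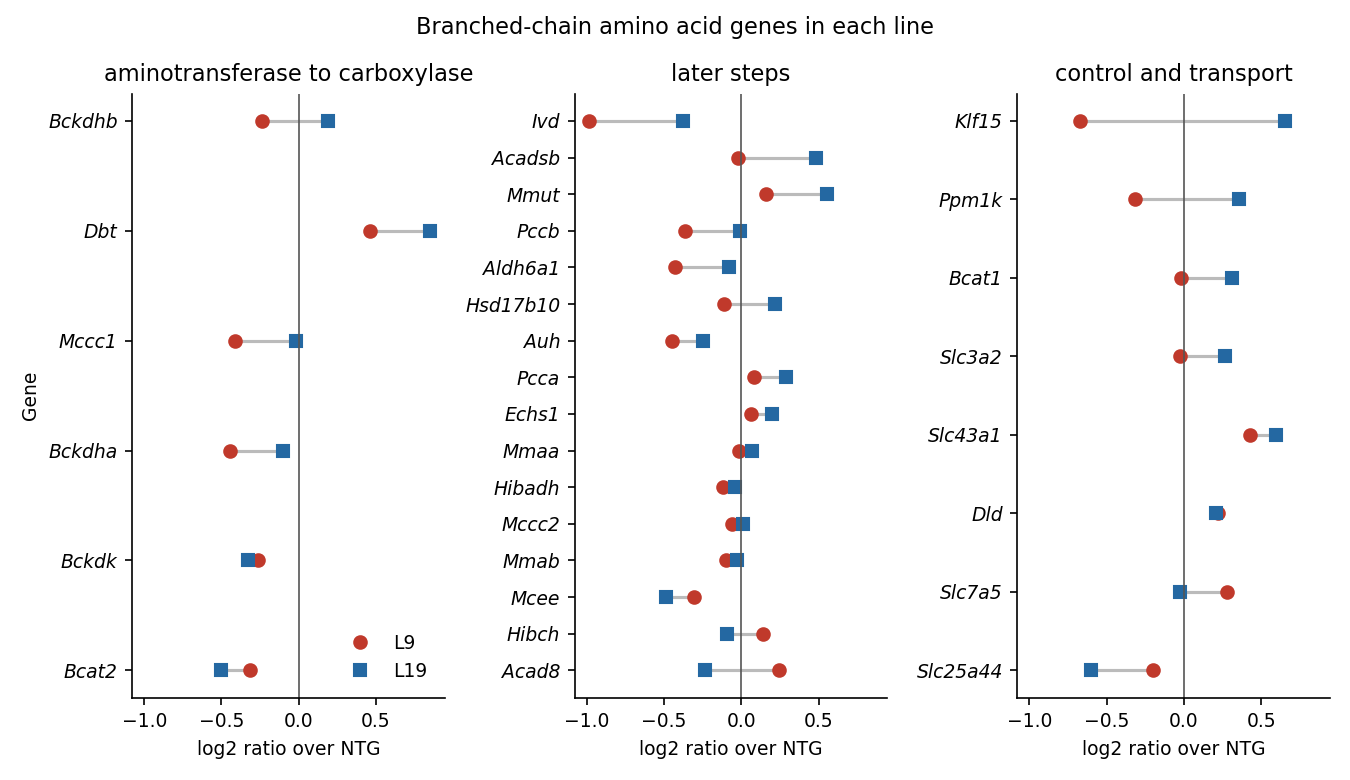
Log2 ratio over NTG (horizontal axis) in L9 (red circles) and L19 (blue squares) for the 6 branched-chain genes, 16 later steps and 8 genes of control and transport, ordered in each panel by the difference between lines. The L19 point lies to the right of the L9 point for 4 of the 6, 13 of the 16 and 5 of the 8 genes.

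Cell type markers were read in the same samples. Fibroblast markers, all 12 measured, had median log2 ratios of 0.88 (L9) and 0.47 (L19). Above NTG were 11 in L9 and 10 in L19, against 48.7% and 48.5% of all genes. The summed signal of the 12 went from 7402 in NTG to 12872 in L9 and from 9212 to 14249 in L19. Of 12 cardiomyocyte markers 11 were measured, with 2 above NTG in L9 and 2 in L19. Medians of the 11 were -0.60 (L9) and -0.46 (L19). Their summed signals went from 184738 to 114641 and from 196735 to 136119, and both Myh6 and Tnnt2 were far above background in all channels. All 7 measured macrophage markers were lower in L19 than in L9, where 49.5% of all genes were higher in L19. Their medians were 0.26 in L9 and -0.48 in L19. Endothelial markers (8 of 8 measured) had medians of -0.34 and -0.40, adipocyte markers (4 of 6) -0.54 and -0.33, and skeletal muscle markers (4 of 7) 0.10 and -0.13. The part of these shifts in the ratios of the 9 genes was not tested, and in whole hearts fewer cells of a type and less RNA per cell cannot be told apart.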

How the data were processed

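The authors' scanner files hold the raw median intensity of each spot in Cy5 and Cy3, from the 3D-Gene Extraction software, neither background-corrected nor normalized. The authors also deposited log2 ratios with a median near 0 per array. These were recomputed as Cy3 over Cy5 after subtraction of the mean of 2736 blank spots trimmed by 5% at each end, with detection above that mean plus 2 SD in both channels and scaling to a median ratio of 1. The table holds 18441 deposited ratios for L9 and 18824 for L19. Of those compared by probe, 18439 of 18440 and 18820 of 18821 lay within 0.001 of the recomputed value. Spots marked bad gave no ratio, and the brightest probe stood for a gene. Symbols came from the platform's table, updated through RefSeq for GRCm38.p6 (12622 current, 3947 updated, 62 kept, 6842 probes unnamed).

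The tests used lmFit and eBayes of limma 3.58.1 (R 4.3.3). A simulation with independent arrays was judged only by whether known folds were recovered. It does not cover NTG RNA of 1 label on both arrays or a dye effect, so it does not bear on the p-values. The fold cutoff of 1.5 follows the paper's methods. Alternatives were normexp with an offset of 50, loess, the deposited ratios, the upper 50% of signal, a limit of 3 SD, a trend with robust estimation, the mean of probes, a cutoff of 2 and each line alone. Centring on the printing block, and normexp followed by loess, were chosen after seeing the data. The genes and lists were chosen with earlier results of these data known. Named genes are the 9, from each other list those past 1.5-fold in both lines with the highest and lowest, and 8 fixed ones. Others, such as Auh, Mcee, Dlat, Dlst, Ppara and Pdk4, were named after their values were seen. Python 3.11.15, numpy 2.4.6 and pandas 2.3.3 were used.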

Additional observations from a re-analysis of the deposited data

How the results depend on the processing

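Bdh1, Oxct1 and Dbt stayed above NTG under the 9 alternatives and in each line alone. Bcat2 stayed below NTG except after normexp, where it was at 0.08 in L9 and -0.10 in L19. Signs turned after normexp for Acat1 (0.20), Bckdha (0.17), Bckdhb (0.41), Bckdk (0.13) and Mccc1 (0.23), and for Bckdhb in L19 alone (0.19, against -0.24 in L9 alone). Under normexp the ratio followed signal, and with loess added no sign turned. limma called 0 genes higher and 0 lower with blank correction, where 2746 and 2521 had an unadjusted p under 0.05. It called 5328 and 2289 after normexp, 1661 and 1335 with loess added, 1249 and 1286 in the upper 50% of signal, 33 and 27 at a limit of 3 SD, and 1832 and 1674 with a trend and robust estimation. Of the 9 genes, none was called with blank correction, 5 higher after normexp, 3 higher and 3 lower with loess added, 3 and 1 in the upper 50% of signal, and 3 and 2 with the trend. The cause of these gains in calls was not tested. Past 1.5-fold were 1 of the 9 genes in L9 and 1 in L19, but 3 and 4 after normexp (8.89% and 7.87% of all genes) and 0 and 0 at a cutoff of 2 (3.36% and 2.89% of all genes). In the other pathway lists, 1 gene was above 1.5-fold in both lines and 0 below, against 5.21% and 3.03% of all genes. After normexp 7 were above, at a cutoff of 2 there were 0, and centred on the printing block 1 was below. The share of all genes past the cutoff in both lines was not computed under these settings. These counts are therefore not read as a result about the lists. With L9 alone 1 was above and 6 were below, against 10.6% and 7.47% of all genes. With L19 alone 6 were above and 1 was below, against 9.78% and 7.6%. TG and NTG were paired within each array, since each ratio sets TG against NTG on its own array. No further pairing was possible because the labels give 1 group of TG samples and no second group that shares replicate numbers with it.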
